A study of Mus musculus with 6 samples.

Results

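The genes described here are 35 genes of hepatic glucose handling, taken by symbol from the 17275 genes of the deposited read count table and read as 3 pathways: 10 genes of gluconeogenesis, 18 of glycolysis and neighbouring steps of lactate and fructose use, and 7 of glycogen. They were chosen by pathway and not by a threshold on their values, but with earlier results of these data known. RNA was sequenced from hepatocytes sorted out of mouse liver, in 6 libraries, of which 3 carry the label Axin2-positive and 3 the label Axin2-negative. The mice were C57BL/6 and carried Axin2rtTA and TetO-H2B-GFP, so that a doxycycline-dependent activator made from the Axin2 locus switched on a nuclear green fluorescent protein. All mice received doxycycline in their drinking water for 7 days, the livers were uninjured, and the labels give the age as 8 weeks in one place and as postnatal day 63 in another. After removal of non-parenchymal cells, fluorescent hepatocytes formed the Axin2-positive group and non-fluorescent hepatocytes the Axin2-negative group, so the sort reads the reporter protein and not Axin2 RNA. Both groups carry the reporter and the drug, and the labels do not say how many mice were used or whether each library came from a separate mouse. The p-values below therefore measure the spread between these libraries, which may be technical in part.

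Hepatocytes release glucose by gluconeogenesis, which turns lactate, alanine and other precursors into glucose 6-phosphate and then glucose, and they take glucose up, break it down by glycolysis or store it as glycogen. Opposing enzymes stand at the same steps: phosphofructokinase against fructose bisphosphatase, pyruvate kinase against pyruvate carboxylase with phosphoenolpyruvate carboxykinase, and glycogen synthase against glycogen phosphorylase. In the liver lobule, gluconeogenesis is known to be more active in hepatocytes near the portal vein and glycolysis in those near the central vein, where Wnt signalling keeps Axin2 expressed.

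Levels are given as CPM, a gene's reads divided by the library total in units of 1e6 reads, with totals scaled by edgeR's TMM method, and values for 3 libraries of a group always stand in the order 1, 2, 3. The numbers follow the sequencing index, and a library of each group carries each index. The libraries hold from 75882611 to 103386648 reads in genes, of which these 35 genes take from 1.07% to 1.53%. The least covered of them, Pck2, had from 91 to 336 reads in a library. Axin2 itself was at 2.40, 22.6 and 24.2 CPM across the Axin2-positive-labelled libraries and at 3.04, 3.75 and 5.75 CPM across the Axin2-negative-labelled ones, so the library labelled Axin2-positive 1 goes against its label. Its 7 markers of hepatocytes near the central vein summed to 2078 CPM, against 15069 and 16044 CPM in the other two Axin2-positive libraries and from 2073 to 5150 CPM in the Axin2-negative ones. Markers of hepatocytes near the portal vein summed to 4642 CPM in it, against 957 and 1049 CPM, and from 4536 to 5051 CPM in the Axin2-negative group. Arg1 alone gave 888 and 814 CPM of the portal sums in Axin2-positive 2 and 3. The difference between the groups is therefore given for each number apart, over all 6 libraries, and again over the 2 pairs with numbers 2 and 3. Hepatocyte markers summed to between 83934 and 184660 CPM in every library, mostly from Alb. Reads of Ddx3y, a gene of the Y chromosome, numbered 7164 and 6759 in the libraries of number 2 and 0 to 3 elsewhere. The libraries of number 2 thus hold RNA of male mice that the others lack, so the spread between numbers takes in a difference between animals.

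Over the 6 libraries, edgeR's quasi-likelihood test with group as the only term called none of the 35 higher or lower (0 of 35, adjusted p threshold 0.05), where it called 0% of 12343 tested genes. All 35 passed the filter on low counts, and each had an adjusted p of 0.999. At an unadjusted p under 0.05 it listed 1 member higher, Pfkfb1, where 1.34% of all genes were listed higher, and 1 lower, Gys2, where 0.924% were listed lower. DESeq2 and limma-voom also called 0 members, and 0 of all genes. With the replicate number as a block, 0 members were called, as were 0% of all genes, with adjusted p from 0.450 to 0.980. That fit listed 3 members higher (4.36% of all genes) and 4 lower (4.81%) at an unadjusted p under 0.05.

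The pair with number 1 differed little. Across the 35 genes the log2 difference within it had an SD of 0.09, against 0.49 and 0.48 within the pairs of numbers 2 and 3. Over all tested genes these SDs were 0.22, 0.78 and 0.62. Per-gene chi-square values between the libraries of number 1 had a median of 2.01 over the members, above the 0.455 that sampling of reads alone gives, so they differ by more than counting error. In the pairs of numbers 2 and 3 that median was 294 and 178. Such values grow with read depth. Over all genes with at least 20 reads in a pair the median was 1.16 in the pair of number 1. It was 13.9 and 9.48 in the pairs of numbers 2 and 3. Fitted over those 2 pairs with the number as a block, edgeR called 3 members higher (3.43% of 12385 genes) and 7 lower (4.01%). By pathway the calls were 0 higher and 5 lower of 10 gluconeogenesis genes, 2 higher and 1 lower of 18 glycolysis genes, and 1 higher and 1 lower of 7 glycogen genes. Tested against a fold of 1.5 instead of no change, 0 members were called in either direction (0.791% of genes higher, 0.888% lower). The 2-pair fit has 1 residual degree of freedom, and the left-out pair is the one that differed least, so its calls are no independent evidence of a difference. Without the libraries of number 2, or without those of number 3, 0 members were called, as were 0 of all genes in either direction.

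**Figure D1:**
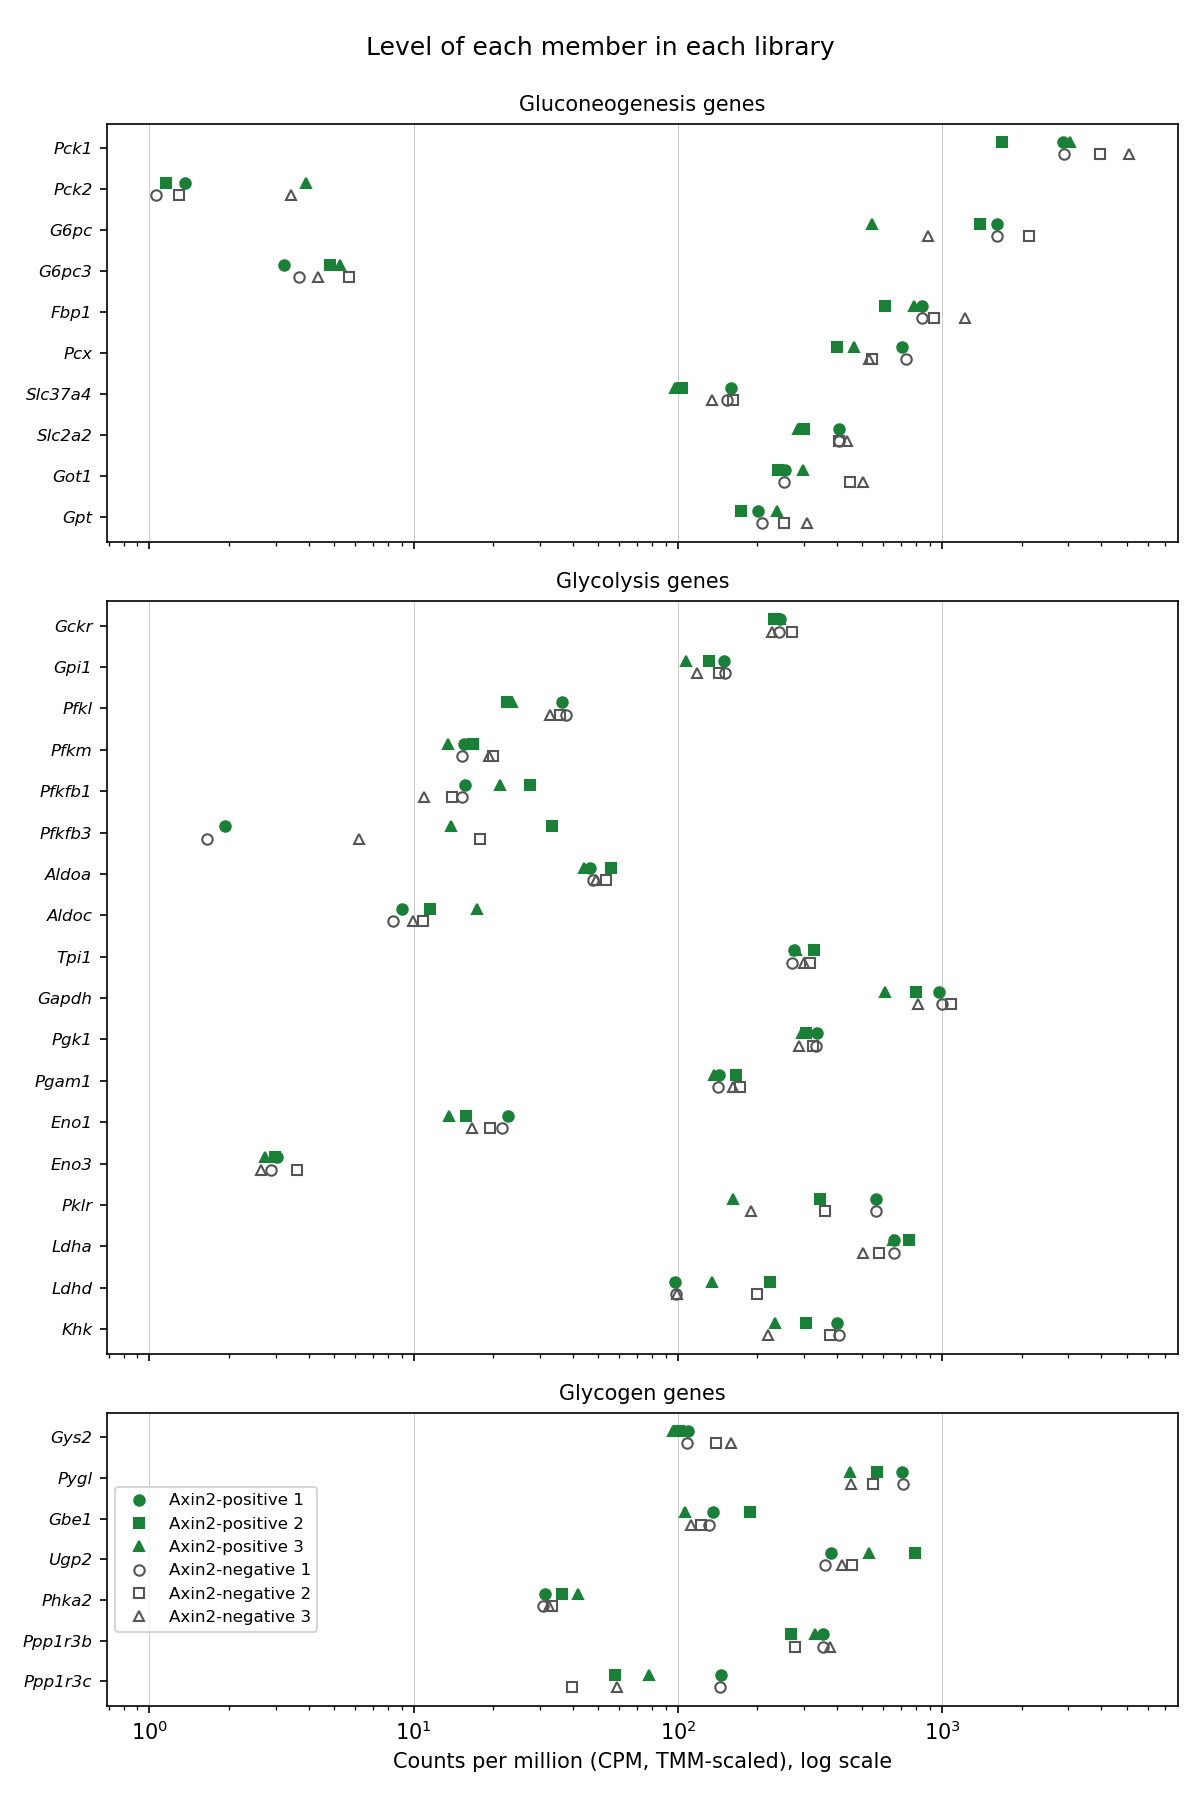
Level of each of the 35 genes in each library, in TMM-scaled CPM on a log axis. Filled green symbols are the libraries labelled Axin2-positive and open symbols those labelled Axin2-negative, and the symbol shape gives the number (circle 1, square 2, triangle 3). The open and filled circles lie on each other for most genes, and for Pck1, G6pc, Fbp1, Slc37a4 and Got1 the green square and triangle each lie left of the open symbol of their shape.

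Most of the 10 gluconeogenesis genes stood lower in Axin2-positive 2 and 3 than in their Axin2-negative partners. In both pairs 8 of the 10 were lower and 0 higher, where 36.5% of all tested genes were lower in both pairs and 35.3% higher in both. The median log2 difference over the 10 genes was -0.58 in pair 2 and -0.55 in pair 3, beside -0.01 and -0.00 over all genes, and it was 0.00 in pair 1. Summed over the 10 genes, the level was 7062, 4912 and 5769 CPM across the Axin2-positive-labelled libraries and 7118, 8858 and 9130 CPM in the others. Pck1 alone made up from 34.3% to 55.8% of the sum in a library. The sum is highest in the Axin2-negative libraries 2 and 3 and lowest in the Axin2-positive libraries 2 and 3, with both libraries of number 1 between them. Of 6 general hepatocyte markers, 4 were likewise lower and 1 was higher in both pairs, and 2 were called lower in the 2-pair fit: Apoa1, an apolipoprotein gene, at -0.48 (SE 0.08, adjusted p = 0.0382) and Tat, the tyrosine aminotransferase, at -0.45 (SE 0.09, adjusted p = 0.0481). Their part in the result was not tested. In bulk libraries such as these, fewer cells of a type and less RNA per cell cannot be told apart.

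Pck1 encodes the cytosolic phosphoenolpyruvate carboxykinase, the enzyme that commits carbon from oxaloacetate to glucose, and lies on chromosome 2 from 173153073 to 173159274 (GRCm38). It was at 2869, 1685 and 3052 CPM across the Axin2-positive-labelled libraries and at 2906, 3961 and 5096 CPM across the Axin2-negative-labelled ones. The 2 highest libraries are Axin2-negative, the lowest is Axin2-positive 2, and the groups overlap because Axin2-positive 3 lies above Axin2-negative 1. The log2 difference was -0.02, -1.23 and -0.74 in pairs 1, 2 and 3, and the fitted log2 fold change was -0.65 (SE 0.31) over 6 libraries and -0.98 (SE 0.14, adjusted p = 0.0247) over 2 pairs. Against a fold of 1.5 its adjusted p was 0.155. Pck2, the mitochondrial form, stayed between 1.06 and 3.91 CPM, with log2 differences of 0.36, -0.16 and 0.19 that do not share a sign.

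Got1, the cytosolic aspartate aminotransferase that carries carbon and reducing equivalents between mitochondria and cytosol, had the lowest adjusted p of the gluconeogenesis genes in the 2-pair fit. It was at 256, 239 and 299 CPM across the Axin2-positive-labelled libraries and 253, 449 and 504 CPM across the Axin2-negative-labelled ones. Axin2-positive 2 and 3 and both libraries of number 1 lie close together, and Axin2-negative 2 and 3 stand above them. The log2 fold change was -0.60 (SE 0.27) over 6 libraries and -0.83 (SE 0.11, adjusted p = 0.0210) over 2 pairs, with an adjusted p of 0.243 against a fold of 1.5. Gpt, the alanine aminotransferase that turns alanine into pyruvate, was at 201, 173 and 238 CPM against 209, 253 and 309 CPM. Its 2-pair value was -0.46 (SE 0.11), with an adjusted p of 0.0725.

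Enzymes and transporters of the last steps were also lower in Axin2-positive 2 and 3. G6pc, the catalytic subunit of glucose-6-phosphatase, was at 1619, 1396 and 542 CPM across the Axin2-positive-labelled libraries and at 1610, 2140 and 886 CPM in the others. Its levels differed more between numbers than between groups: both libraries of number 3 lie below all others, and within each of pairs 2 and 3 the Axin2-positive library is the lower. The log2 differences were 0.01, -0.62 and -0.71, and the 2-pair fold change was -0.66 (SE 0.10, adjusted p = 0.0282). Fbp1, the fructose bisphosphatase, was at 842, 610 and 783 CPM against 842, 933 and 1225 CPM. It is the 1 member whose 3 libraries labelled Axin2-positive lie below the 3 labelled Axin2-negative, as did 3.77% of all tested genes. That count takes in the library labelled Axin2-positive 1, which goes against its label and differs here from its partner by less than the printed digits. Its 2-pair fold change was -0.63 (SE 0.10, adjusted p = 0.0315). Slc37a4, which carries glucose 6-phosphate into the endoplasmic reticulum, was at 158, 103 and 97.5 CPM against 154, 162 and 135 CPM, with a 2-pair value of -0.56 (SE 0.11, adjusted p = 0.0434).

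Slc2a2, the glucose transporter of the hepatocyte membrane, missed the threshold by little. It stood at 409, 299 and 284 CPM across the Axin2-positive-labelled libraries, against 409, 409 and 439 CPM, so Axin2-positive 2 and 3 are the lowest libraries and the other 4 lie close together. Its 2-pair fold change was -0.54 (SE 0.11, adjusted p = 0.0526). Pcx, the pyruvate carboxylase, was at 704, 400 and 465 CPM against 730, 543 and 528 CPM (2-pair value -0.31, adjusted p = 0.177). G6pc3, the broadly expressed phosphatase form, was at 3.23 to 5.26 CPM against 3.67 to 5.71 CPM, and its differences of -0.18, -0.24 and 0.27 changed sign between pairs. Both low-level paralogs, Pck2 and G6pc3, are thus the members of this pathway that did not share the direction.

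**Figure D2:**
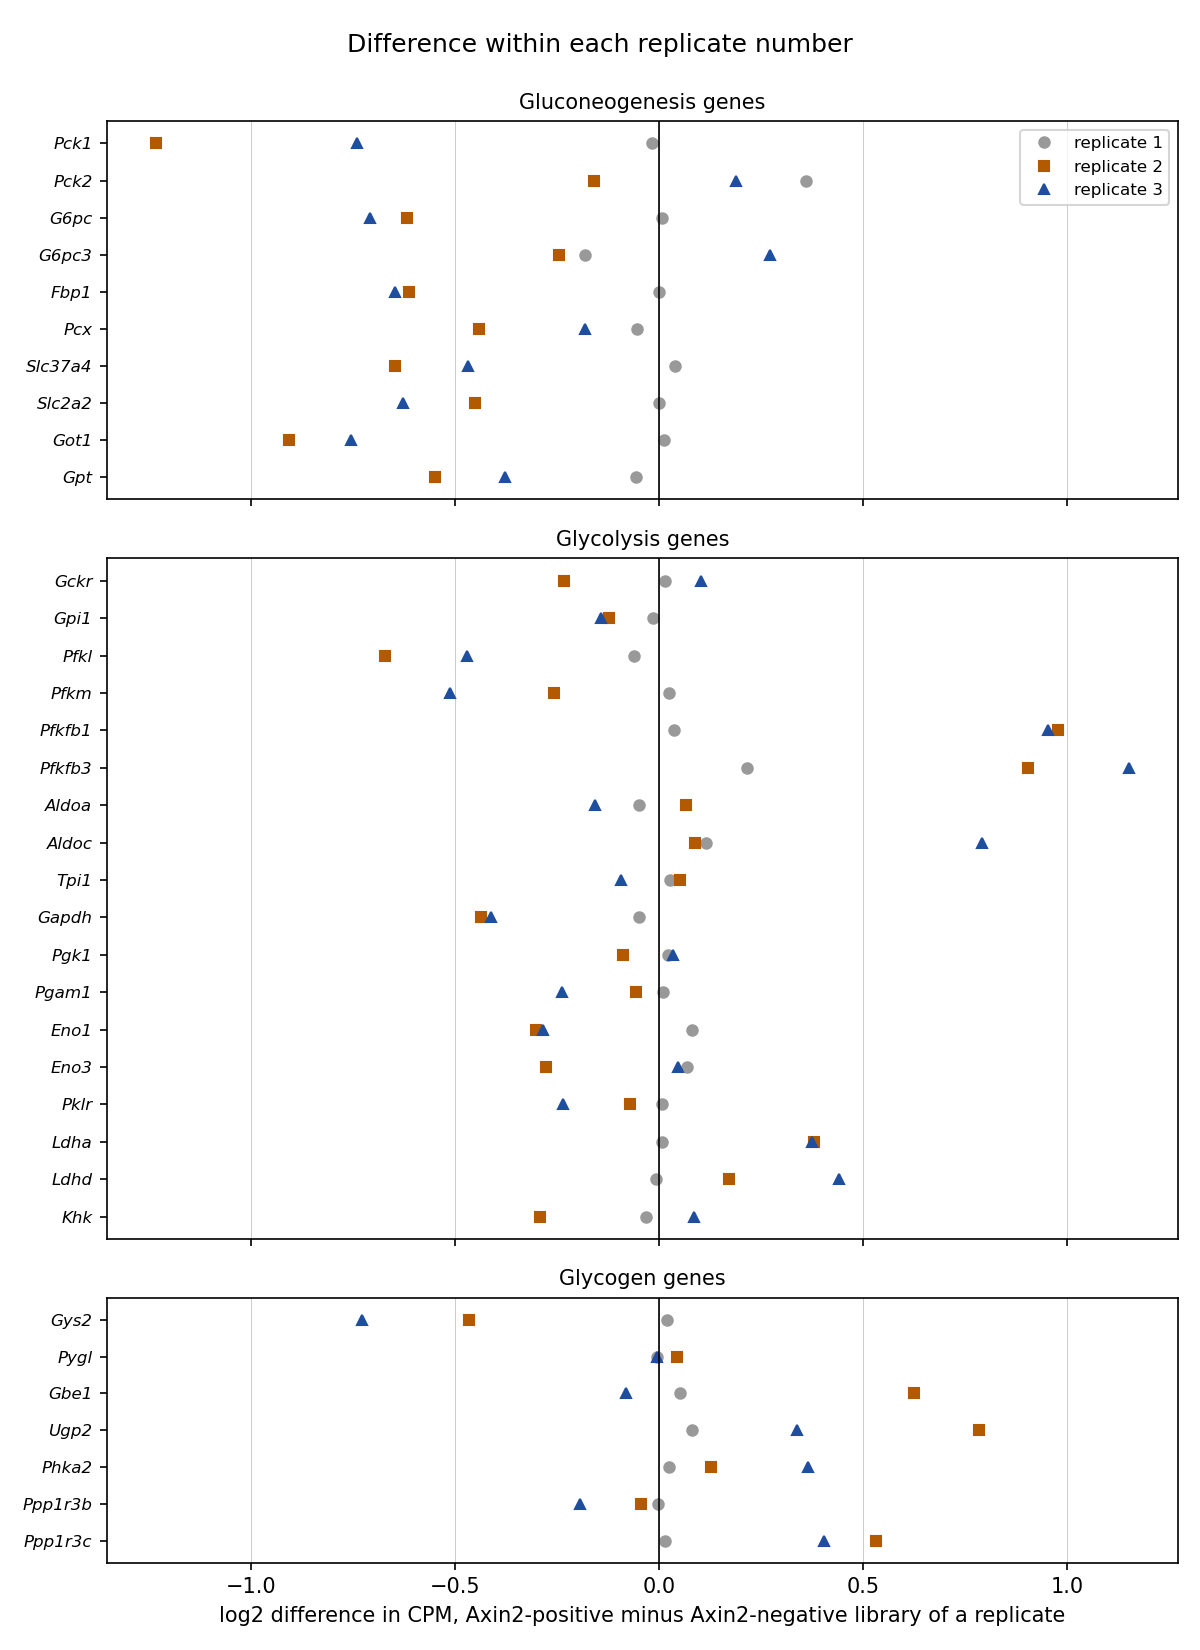
The log2 difference in CPM within each number, Axin2-positive minus Axin2-negative, for the 35 genes (offset 0.05 CPM). Grey circles are number 1, brown squares number 2 and blue triangles number 3. For 8 of 10 gluconeogenesis genes the squares and triangles lie left of 0, and the grey circles of most genes sit near 0.

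Bases upstream of the start are printed for 4 genes: Pck1 and G6pc, the enzymes near either end of gluconeogenesis, and Got1 and Pfkfb1, the lower and the higher member with the lowest adjusted p in the 2-pair fit. They are the 250 bases before a RefSeq start of the gene (GRCm38.p6), written 5′ to 3′ on the gene's own strand. The start taken was the one nearest that of the gene's most abundant transcript in the authors' deposited table. For Pfkfb1 it is at 150589916, inside the gene's interval of 150587445 to 150643878. Capitals mark a match, on either strand, to any of 4 motifs: CTTTGA, a core of TCF/LEF sites; ACGTCA, the CREB half-site; GTAAACA, a FOXO core; and CACGTG, an E-box. The Pck1 stretch is chr2:173152823-173153072 on the plus strand, G6pc chr11:101367466-101367715 plus, Got1 chr19:43524606-43524855 minus, and Pfkfb1 chrX:150589666-150589915 plus.
Pck1: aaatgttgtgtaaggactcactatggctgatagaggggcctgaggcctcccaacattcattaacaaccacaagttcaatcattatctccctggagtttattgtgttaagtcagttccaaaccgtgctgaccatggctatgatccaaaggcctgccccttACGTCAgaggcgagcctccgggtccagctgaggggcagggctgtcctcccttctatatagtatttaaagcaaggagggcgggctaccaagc
G6pc: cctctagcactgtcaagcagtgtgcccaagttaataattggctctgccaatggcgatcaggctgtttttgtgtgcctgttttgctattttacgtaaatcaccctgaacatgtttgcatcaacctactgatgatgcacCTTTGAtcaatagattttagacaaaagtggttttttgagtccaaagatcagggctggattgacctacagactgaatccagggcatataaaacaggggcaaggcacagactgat
Got1: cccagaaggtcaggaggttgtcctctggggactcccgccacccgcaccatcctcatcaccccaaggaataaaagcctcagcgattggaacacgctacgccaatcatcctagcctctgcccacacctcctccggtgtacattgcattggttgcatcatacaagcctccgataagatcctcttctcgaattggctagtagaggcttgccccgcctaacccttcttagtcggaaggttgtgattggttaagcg
Pfkfb1: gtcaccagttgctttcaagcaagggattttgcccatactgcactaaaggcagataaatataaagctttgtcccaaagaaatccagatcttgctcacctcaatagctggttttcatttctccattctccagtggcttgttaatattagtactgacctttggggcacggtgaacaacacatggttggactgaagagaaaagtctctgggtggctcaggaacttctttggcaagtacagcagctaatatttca
In Pck1 the capitals are ACGTCA, from 91 to 86 bases before the start, and in G6pc they are CTTTGA, from 113 to 108 bases before it. The windows of Got1 and Pfkfb1 hold none of the 4 letter strings. Over the 32 members with a promoter entry, CTTTGA was in 6 (18.8%) where 13.8% of 32851 promoters held it, ACGTCA in 2 (6.47% of all), GTAAACA in 1 (3.17%) and CACGTG in 7 (21.9% against 6.02%). These are matches of letters and say nothing of binding.

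Glycolysis genes did not share a direction. Of the 18, 5 were higher and 7 lower in both of pairs 2 and 3, and their median log2 difference was 0.01, -0.08 and -0.03 in pairs 1, 2 and 3. Their summed level was 3992, 3771 and 3006 CPM across the Axin2-positive-labelled libraries and 4017, 3995 and 3065 CPM in the others, so the sums differed more between numbers than between groups. All 3 calls of the 2-pair fit were of genes at the phosphofructokinase step.

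Pfkfb1 and Pfkfb3 encode bifunctional enzymes that make and remove the fructose bisphosphate that activates phosphofructokinase, and Pfkfb1 is the form known from liver. Pfkfb1 (chromosome X, 150587445 to 150643878) was at 15.6, 27.5 and 21.2 CPM across the Axin2-positive-labelled libraries and at 15.2, 13.9 and 10.9 CPM across the Axin2-negative-labelled ones. It is the 1 member whose 3 libraries labelled Axin2-positive lie above the 3 labelled Axin2-negative, as did 3.44% of tested genes. This count too takes in the library labelled Axin2-positive 1, which goes against its label and nearly equals its partner. Its log2 differences were 0.04, 0.98 and 0.95. The fitted fold change was 0.68 (SE 0.24, unadjusted p = 0.0277) over 6 libraries and 0.97 (SE 0.09, adjusted p = 0.00879) over 2 pairs, and its adjusted p against a fold of 1.5 was 0.0586. In the authors' deposited table it had 10.4 FPKM in the Axin2-positive and 6.50 FPKM in the Axin2-negative group (p = 0.0052, q = 0.383).

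Pfkfb3, an inducible form, varied most among the 35 genes between numbers. It was at 1.92, 33.4 and 13.8 CPM across the Axin2-positive-labelled libraries and 1.65, 17.8 and 6.20 CPM in the others, so both libraries of number 1 are lowest, and within numbers 2 and 3 the Axin2-positive library is the higher. The pair means spanned 3.74 on the log2 scale, beside differences within pairs of 0.21, 0.90 and 1.15. Over 6 libraries its fold change was 0.94 with an SE of 1.15. Over 2 pairs it was 1.03 (SE 0.11, adjusted p = 0.0115), and 0.0688 was its adjusted p against a fold of 1.5. By transcript, the authors' deposited table gave 2.23 against 1.20 FPKM for NM_133232 (p = 0.0361) and 0.486 against 0.581 FPKM for NM_001177755 (p = 0.755). The direction was thus opposite in the transcript with the second-highest value, without a difference past the threshold there.

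Pfkl, the liver phosphofructokinase subunit that responds to this activator, went the other way. It was at 36.3, 22.6 and 23.6 CPM across the Axin2-positive-labelled libraries and at 37.9, 35.9 and 32.8 CPM across the Axin2-negative-labelled ones. Axin2-positive 2 and 3 are the lowest libraries, and the library labelled Axin2-positive 1 lies among the Axin2-negative ones. The log2 fold change was -0.37 (SE 0.20) over 6 libraries and -0.57 (SE 0.09, adjusted p = 0.0341) over 2 pairs. Pfkm, the muscle-type subunit, had log2 differences of 0.02, -0.26 and -0.51, with a 2-pair value of -0.38 (adjusted p = 0.0944).

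Downstream of this step, no gene was called. Gapdh, the glyceraldehyde phosphate dehydrogenase, measured 970, 797 and 610 CPM against 1003, 1078 and 810 CPM, with a 2-pair value of -0.42 (SE 0.10, adjusted p = 0.0713). Ldha, the lactate dehydrogenase subunit that favours lactate formation, was at 660, 751 and 653 CPM against 656, 577 and 503 CPM. Its log2 difference was 0.38 in both of pairs 2 and 3 (2-pair adjusted p = 0.0914). Aldoc, the brain-type aldolase, was at 9.05, 11.5 and 17.3 CPM against 8.36, 10.9 and 9.98 CPM, a difference carried by pair 3 (2-pair adjusted p = 0.205). Pklr, the liver pyruvate kinase, was at 564, 344 and 161 CPM against 561, 361 and 190 CPM. Its libraries fall by number, with those of number 1 highest and those of number 3 lowest in both groups. Ldhd, the D-lactate dehydrogenase, was at 97.5, 224 and 135 CPM against 98.0, 199 and 99.4 CPM, also ordered mainly by number.

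The remaining glycolysis genes had 2-pair log2 fold changes between -0.29 and -0.02. These are Gckr, Gpi1, Aldoa, Tpi1, Pgk1, Pgam1, Eno1, Eno3 and Khk, which phosphorylates fructose. Pgk1, for instance, was at 337, 305 and 295 CPM against 332, 325 and 288 CPM, with the groups interleaved. The read counts of Eno1 are uncertain: the count table gives it 13.6 to 22.8 CPM, while the authors' deposited table gives it 182 and 194 FPKM. The log2 ratio of its CPM per kb of transcript to its FPKM was -4.30 relative to the median of 10170 genes. Enolase has near-identical gene copies in the mouse genome, and how reads were split among them was not tested. For 33 of the 35 genes that ratio was within 1 log2 unit, and Slc2a2 was at -1.09. Ass1, 1 of the portal markers summed above, was at -6.10, so its read counts are uncertain too.

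**Figure D3:**
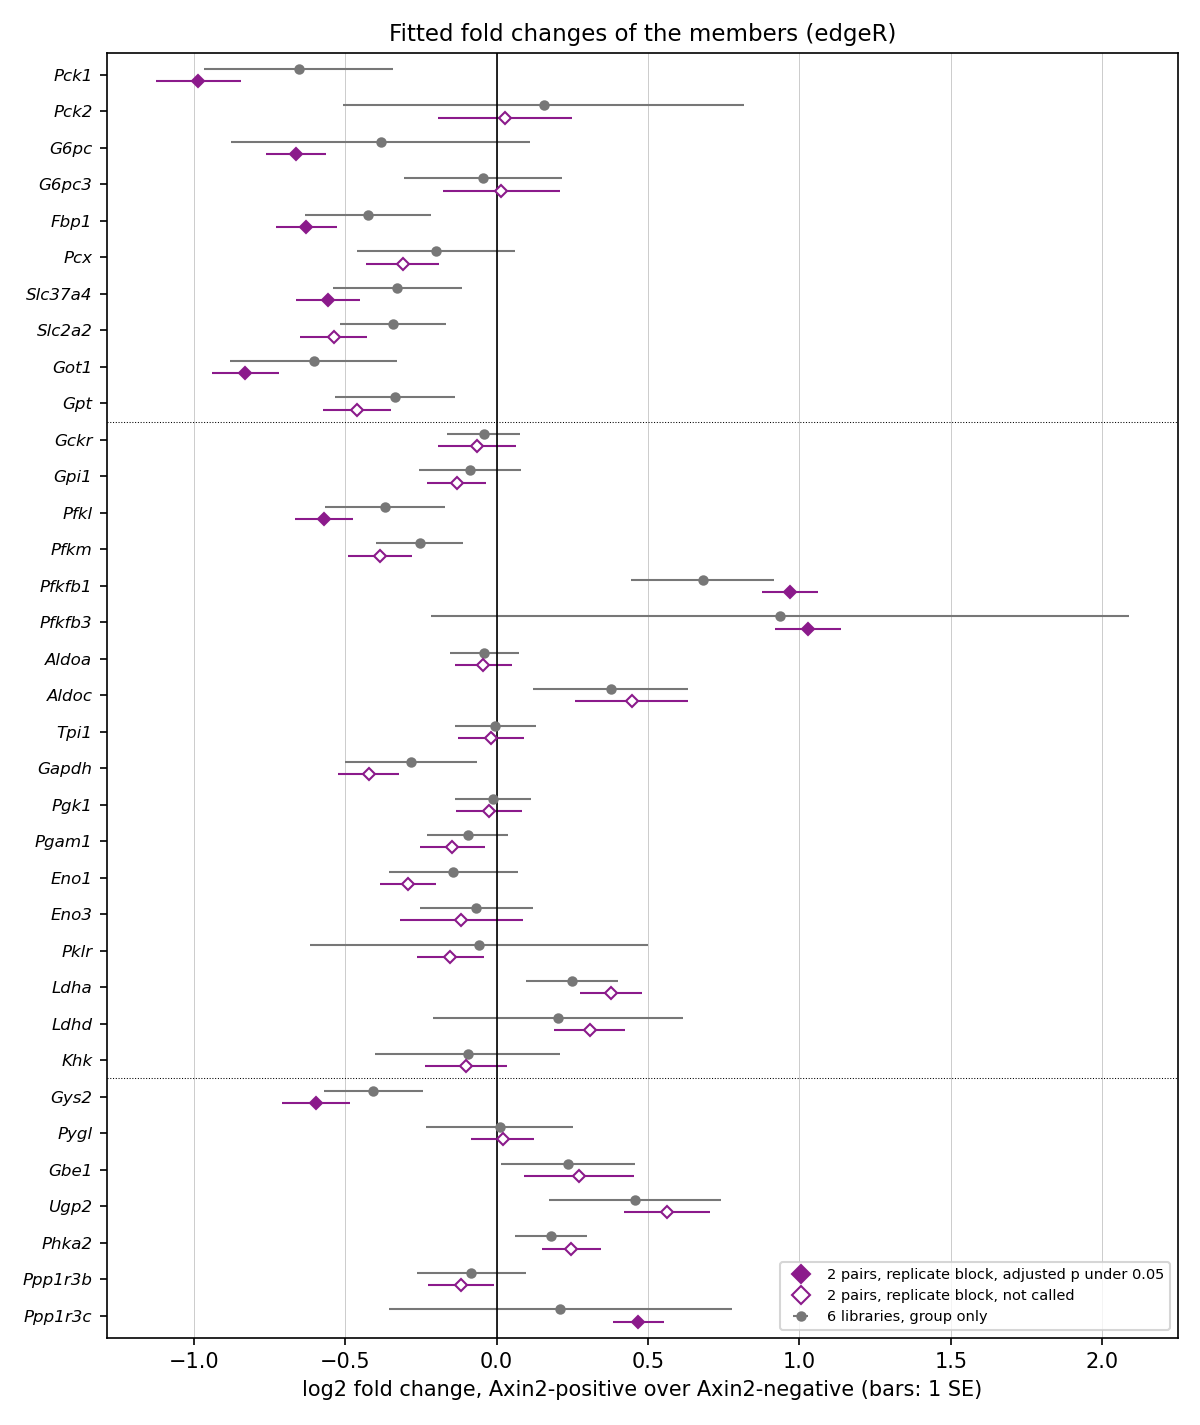
Fitted log2 fold change, Axin2-positive over Axin2-negative, of the 35 genes, with bars of 1 SE. Grey circles are the fit of 6 libraries with group only, and purple diamonds the fit of 2 pairs with the number as a block, filled where the adjusted p was under 0.05. Filled diamonds are 3 genes right of 0 (Pfkfb1, Pfkfb3, Ppp1r3c) and 7 left of it, and dotted lines part the 3 pathways.

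Glycogen genes held a call on each side. Gys2, the liver glycogen synthase, was at 110, 101 and 95.7 CPM across the Axin2-positive-labelled libraries and at 108, 139 and 159 CPM across the Axin2-negative-labelled ones. Axin2-negative 2 and 3 stand above the other 4 libraries, which lie close together, and the groups overlap at number 1. The log2 fold change was -0.41 (SE 0.16, unadjusted p = 0.0472) over 6 libraries and -0.59 (SE 0.11, adjusted p = 0.0429) over 2 pairs. Pygl, the liver glycogen phosphorylase, was at 706, 565 and 450 CPM against 709, 549 and 451 CPM, with differences within pairs of -0.01, 0.04 and -0.01. Its levels thus followed the number, and the 2-pair value was 0.02 (SE 0.10).

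Ppp1r3c, a subunit that targets protein phosphatase to glycogen, was at 146, 57.6 and 78.1 CPM against 144, 39.9 and 59.1 CPM. Both libraries of number 1 are far above the rest, and within numbers 2 and 3 the Axin2-positive library is the higher. Its fold change was 0.21 (SE 0.57) over 6 libraries and 0.47 (SE 0.09, adjusted p = 0.0404) over 2 pairs. Ppp1r3b, the liver targeting subunit, was at 355, 269 and 330 CPM against 356, 277 and 378 CPM (2-pair adjusted p = 0.540). Ugp2, which makes the UDP-glucose that glycogen synthase uses, was at 381, 789 and 530 CPM against 360, 458 and 420 CPM. Axin2-positive 2 and 3 are its highest libraries, and its 2-pair value was 0.56 (SE 0.14, adjusted p = 0.0802). Gbe1, the branching enzyme, was at 136, 188 and 106 CPM against 131, 122 and 112 CPM, with pairs 2 and 3 of opposite sign. Phka2, a regulatory subunit of phosphorylase kinase in liver, was at 31.4, 36.4 and 41.9 CPM against 30.9, 33.4 and 32.6 CPM (2-pair adjusted p = 0.182). The 7 genes summed to 1865, 2006 and 1632 CPM against 1840, 1619 and 1612 CPM.

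Ratios of read counts of opposing enzymes were computed within a library, for steps chosen after the values had been seen and with no test. Reads of Gys2 per read of Pygl were 0.155, 0.178 and 0.213 across the Axin2-positive-labelled libraries and 0.153, 0.254 and 0.351 in the others. This ratio differed by -0.51 and -0.72 on the log2 scale in pairs 2 and 3. Reads of Pklr per read of Pck1 were 0.197, 0.204 and 0.0529 against 0.193, 0.0913 and 0.0373, a log2 difference of 1.16 in pair 2 and 0.50 in pair 3. Reads of Pfkl per read of Fbp1 were 0.0431, 0.0370 and 0.0302 against 0.0449, 0.0385 and 0.0267, and here pairs 2 and 3 differed in sign (-0.06 and 0.18). The ratios of Gys2 to Pygl and of Pklr to Pck1 thus each kept a direction in pairs 2 and 3. Among single genes, 35.3% of all tested were higher and 36.5% lower in both pairs. The ratio of Pklr to Pcx, the other enzyme opposing Pklr, was not computed. Pklr differed by -0.07 and -0.24 in pairs 2 and 3 and Pcx by -0.44 and -0.18, so the larger drop changed between pairs. At the fructose phosphate step both genes were lower together.

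**Figure D4:**
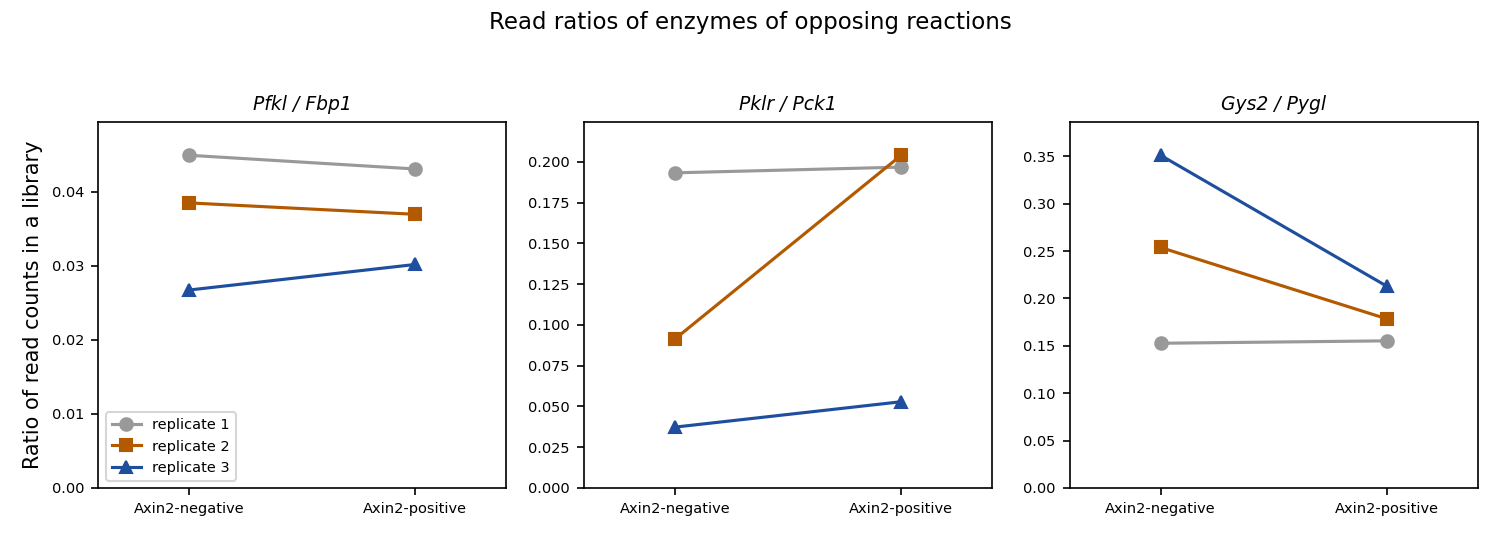
Ratio of the read counts of enzymes of opposing reactions within a library, on linear axes from 0, with a line joining the libraries of each number (grey 1, brown 2, blue 3). The Gys2 to Pygl lines of numbers 2 and 3 descend towards Axin2-positive, those of Pklr to Pck1 rise, and the lines of number 1 are nearly flat.

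Per length, in the authors' deposited table, Pck1 was the most abundant of the 35 genes in both groups at 947 FPKM in Axin2-positive and 1499 FPKM in Axin2-negative. Gapdh followed at 647 and 795 FPKM, then Fbp1 at 552 and 748 FPKM and G6pc at 541 and 696 FPKM. Pck2 was lowest at 0.712 and 0.653 FPKM. That table holds 1 value per group, so the order has no error of its own. Of 44 tested transcripts of the members, 0 had a q under 0.05 in the authors' deposited table, where 0.701% of 13843 tested transcripts had. At a p under 0.05 there were 3 higher (1.86% of all) and 1 lower (1.75%). The higher ones were Pfkfb1, Pfkfb3 and Ppp1r3c, the last at 33.1 against 22.6 FPKM in the authors' deposited table with a Cuffdiff p of 0.0365. The lower one was Got1, at 135 against 212 FPKM in the authors' deposited table with a Cuffdiff p of 0.0231. All 4 lie on the same side as in the 2-pair fit. That fit used libraries of the same groups, without those of number 1, so it is no independent evidence.

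Other genes of the same pathways were taken from lists by function, and their counts in the 2-pair fit stand beside the 3.43% of all genes called higher and 4.01% called lower in it. In the 6-library fit and in the fit with the block 0 of them were called. In the 2-pair fit 0 of 11 further tested genes of gluconeogenesis were higher and 1 lower, which was Sds, the serine dehydratase that feeds serine carbon into pyruvate and also 1 of the portal markers summed above. It was at 177, 0.874 and 7.30 CPM across the Axin2-positive-labelled libraries and at 186, 234 and 416 CPM in the others, with an adjusted p of 0.0128 against a fold of 1.5. The mitochondrial aminotransferases were not called: Got2 was at 546, 489 and 464 CPM against 558, 507 and 487 CPM, lower by a small margin in every pair, and Gpt2 at 332, 427 and 465 CPM against 331, 477 and 403 CPM. Of the cytosolic forms Got1 was called and Gpt was not, and the difference between forms was not tested.

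Of 14 further tested genes of glycolysis and fructose use, 0 were higher and 1 was lower, Dak, the triokinase, at 479, 393 and 203 CPM against 486, 558 and 298 CPM (2-pair adjusted p = 0.0481). Of 18 further tested glycogen genes, 1 was called higher and 2 lower. Stbd1, a glycogen-binding protein, was the one called higher, at 34.8, 83.6 and 73.1 CPM against 34.5, 60.4 and 50.7 CPM. Ppp1r3g, another glycogen-targeting subunit, and Gaa, the lysosomal glucosidase that digests glycogen, were called lower. Gaa was at 99.4, 68.3 and 76.2 CPM against 106, 108 and 113 CPM. Its groups as labelled do not overlap, as in the 3.77% of all tested genes that lay lower in Axin2-positive. This takes in the library labelled Axin2-positive 1, which goes against its label.

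Of 23 regulators of these pathways 2 were called higher (8.70%, beside 3.43% of all genes) and 3 lower (13.0%, beside 4.01%) in the 2-pair fit. Pdk4, the kinase that switches off pyruvate dehydrogenase and so spares pyruvate, was at 27.4, 80.1 and 57.3 CPM across the Axin2-positive-labelled libraries and at 26.6, 3.42 and 6.90 CPM in the others. The groups as labelled do not overlap, as in the 3.44% of all tested genes that lay higher in Axin2-positive. The libraries of number 1 nearly meet, and the library labelled Axin2-positive 1 goes against its label. The fold change of Pdk4 was 2.16 (SE 0.83) over 6 libraries and 3.77 (SE 0.36, adjusted p = 0.00909) over 2 pairs. It passed against a fold of 1.5 (adjusted p = 0.0151). Pdk1 and Pdk2, kinases of the same family, were not called, with 2-pair values of 0.14 and -0.16. Irs1, an adaptor of the insulin receptor, was called higher, at 22.7, 62.6 and 63.3 CPM against 21.7, 30.6 and 34.3 CPM, and Irs2 was not (2-pair value -0.03).

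The regulators called lower were Ppargc1a, a coactivator that drives gluconeogenic genes, Cebpb, a transcription factor that binds the Pck1 promoter, and Srebf1, a factor of lipid and glucose-responsive synthesis. Ppargc1a was at 10.2, 1.55 and 9.33 CPM against 10.6, 7.39 and 20.6 CPM, and Cebpb at 44.3, 63.7 and 79.9 CPM against 45.6, 118 and 143 CPM. Their 2-pair values were -1.63 (SE 0.27, adjusted p = 0.0347) and -0.86 (SE 0.10, adjusted p = 0.0126). In both genes the Axin2-positive library is the lower of pairs 2 and 3, and the groups overlap. Srebf1 was at 585, 260 and 346 CPM against 609, 495 and 507 CPM (2-pair adjusted p = 0.0409). Foxo1, which also acts on G6pc and Pck1, was at 41.1, 33.3 and 37.8 CPM against 41.5, 35.3 and 40.6 CPM and was not called.

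Many of these genes differed between numbers. For 27 of the 35 genes the range of the 3 pair means exceeded the mean size of the difference within pairs. That mean takes in pair 1, which differed little, and a range is set against it, so the count favours the spread between numbers. The same count over all genes was not made. For 6 genes the range was over 1 log2 unit: Pfkfb3, Pklr (1.69), Ppp1r3c (1.60), Pck2 (1.57), G6pc (1.32) and Ldhd (1.11). In contrast, Pck1 and Pfkfb3 were the 2 genes with a difference of over 1 log2 unit within pair 2 or 3. Over 1.5-fold in the same direction in both pairs were 2 members higher (3.22% of all genes) and 4 lower (6.64%). Markers of other liver cells differed within pairs 2 and 3 as well, beside the 4 of 6 hepatocyte markers that were lower in both. The 8 Kupffer cell markers measured were all lower in Axin2-positive in both pairs, as were 36.5% of all tested genes. In the 2-pair fit 4 of them were called lower, where 4.01% of all genes were. Some had few reads in pair 2: Marco 0 against 2, Emr1 1 against 5 and Vsig4 1 against 21. The Kupffer marker sums were 33.5 to 96.2 CPM against 33.5 to 105 CPM, with Marco at 0 in a library. Those sums are mostly Mpeg1, which was not called, at 30.2, 95.1 and 38.2 CPM against 30.1, 100.7 and 41.3 CPM. The 4 called were Clec4f, Cd5l, Csf1r and Vsig4, with 2-pair log2 fold changes from -3.05 to -2.82. Clec4f, for instance, was at 1.05, 0.101 and 1.24 CPM against 0.909, 1.13 and 7.25 CPM. Endothelial markers were lower in both pairs for 6 of 7 genes, with sums of 1.85 to 47.0 CPM against 5.10 to 63.3 CPM, 0 calls and Lyve1 at 0 in a library. Stellate markers summed to 0.203 to 4.86 CPM against 0.933 to 5.24 CPM and biliary markers to 0.174 to 11.1 CPM against 2.71 to 11.5 CPM, with 0 and 2 members called lower. Dcn, Des and Pdgfrb among the former and Krt19, Krt7 and Epcam among the latter were at 0 in a library. The part of these cells in the differences was not tested.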

How the data were processed

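For each library the authors deposited read counts by gene symbol, in whole numbers. TopHat2 2.0.11 and the build mm10 are named in the submitters' processing notes. How genes were counted, on which annotation and whether by strand, is not given in the sources used here, which leaves overlapping genes and near-identical copies uncertain. A second deposited table holds the authors' FPKM for every transcript, as a single value in each group, and p-values with q-values from Cuffdiff 2.2.2, per the submitters' processing notes. FPKM were summed over a gene's transcripts.

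Counts were fitted over all genes with edgeR 4.0.16 in R 4.3.3 by its quasi-likelihood F test, after the default low-count filter and TMM scaling, with group as the only term and a Benjamini-Hochberg threshold of 0.05. The SE is the fold change over the root of F. Differences within a number use log2 of CPM with an offset of 0.05. Scripts were tested on simulated data. Alternatives were the replicate block, RLE scaling, DESeq2 1.42.0, voom in limma 3.58.1, no filter, a mean of 10 CPM, each library left out, and 2 pairs without number 1, also against a fold of 1.5. Fits without number 2 or 3 were added after seeing the data. Libraries were paired by number, since the labels state no pairing beyond the shared index. Same-numbered libraries deviated together from their group means (r = 0.68, 0.82 and 0.75 across genes, highest with another number 0.14). Whether they come from the same mice is not given.

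The 35 genes, the other pathway lists and the marker lists were chosen with earlier results of these data known. All 35 genes are named, and other pathway genes where called in the 6-library, block or 2-pair fit or where a paralog of a member, except some that are not reported here. Foxo1, Irs2, Pdk1 and Pdk2 fall outside that rule and were named after their values were seen. Coordinates and promoters are from GENCODE and RefSeq annotation of GRCm38, the build mm10 stands for, and 32 of 35 members had a promoter entry.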

Additional observations from a re-analysis of the deposited data

How the results depend on the processing

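All settings with 6 libraries called 0 of the 35 genes and 0 of all tested genes. They were RLE scaling, DESeq2, limma-voom, no filter, a mean of 10 CPM (32 of the 35 genes tested) and the replicate block, which changed no call. Leaving out 1 library also called 0 members, with 0 to 1 genes higher and 0 to 5 lower over all genes, the calls coming without the library labelled Axin2-positive 1. The fit of 2 pairs without number 1, with the replicate block, called 425 genes higher and 497 lower, 3 and 7 of the members, and 3 and 7 of the other pathway genes. Against a fold of 1.5 these were 98 and 110 genes, 0 members and 1 and 1 other pathway genes. The cause was not tested.

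Of the 35 genes, 17 turned sign in 1 or more of 16 settings and 18 kept it. G6pc3 turned to 0.016 without number 1 (also against a fold of 1.5) and to 0.048 without number 2. Also without number 2, Gckr turned to 0.058, Pgk1 to 0.028, Eno3 to 0.058, Khk to 0.028, Pygl to -0.0050 and Gbe1 to -0.014. Without number 3, Aldoa turned to 0.0097 and Tpi1 to 0.039, and at a mean of 10 CPM Pygl turned to -0.0075. With each library left out, log2 fold changes ran from -0.61 to 0.87 for Pck2, -0.19 to 0.15 for G6pc3, -0.10 to 0.030 for Gckr, -0.21 to 0.030 for Gpi1, -0.12 to 2.06 for Pfkfb3, -0.15 to 0.027 for Aldoa, -0.088 to 0.049 for Tpi1, -0.071 to 0.029 for Pgk1, -0.38 to 0.0051 for Eno1, -0.16 to 0.076 for Eno3, -0.56 to 0.37 for Pklr, -0.19 to 0.62 for Ldhd, -0.32 to 0.078 for Khk, -0.17 to 0.20 for Pygl, -0.0098 to 0.41 for Gbe1, -0.21 to 0.024 for Ppp1r3b and -0.26 to 0.92 for Ppp1r3c. All 105 differences within a number kept their sign with an offset of 1 CPM. Pck2, with 91 reads in a library, is the member whose depth limits precision most.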
